A study of Mus musculus with 60 samples.

Results

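The neurotrophin genes described here are 6 of the 18088 genes in the deposited table: the ligand genes Bdnf and Ntf3, the secreted-peptide gene Vgf, and the receptor genes Ntrk2, Ntrk3 and Ngfr. They were taken by symbol, through the gene identifiers of GENCODE release M21, and not by a cut on any measured value. The set was chosen with earlier results of these data known. All 6 were among the 17810 genes tested. RNA was sequenced from the prefrontal cortex of C57BL/6J mice at postnatal day 25. Heterozygous mice (Het) carried 1 copy of Grin2b, the gene of the NMDA receptor subunit GluN2B, with the C456Y missense change, and wild-type mice (WT) carried none. Pups received fluoxetine, a selective serotonin reuptake inhibitor, or lithium, a mood stabiliser, or neither (vehicle), by way of their mothers' milk from postnatal day 3 to 24. Each of the 6 genotype-by-drug groups (Het fluoxetine, WT fluoxetine, Het lithium, WT lithium, Het vehicle and WT vehicle) held 5 female and 5 male libraries, 60 in all. The labels do not say which libraries came from the same litter or dam, and a drug given through the dam is shared by littermates, so the p-values measure the spread between these libraries. The Grin2b allele changes a codon, so the level of Grin2b RNA is no check of the genotype labels.

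Neurotrophins are secreted growth factors that keep neurons alive, shape their dendrites and strengthen their synapses. BDNF acts on the receptor tyrosine kinase TrkB, which Ntrk2 encodes, and neurotrophin-3, the product of Ntf3, acts mainly on TrkC, which Ntrk3 encodes. The p75 receptor, which Ngfr encodes, binds all neurotrophins and their unprocessed precursors. In the cortex excitatory neurons are the main source of Bdnf, and calcium entry through NMDA receptors is among the signals that raise its transcription. Vgf encodes a granin-like precursor of secreted peptides that neurotrophins induce.

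On the mouse genome build GRCm38, Bdnf (ENSMUSG00000048482) lies on chromosome 2 from 109674700 to 109727007 on the plus strand. Ntf3 (ENSMUSG00000049107) lies on chromosome 6 from 126101412 to 126166910 on the minus strand, 9.55 Mb from Grin2b on the same chromosome. Vgf (ENSMUSG00000037428) lies on chromosome 5 from 137026392 to 137033351 on the plus strand. Ntrk2 (ENSMUSG00000055254) spans chromosome 13 from 58806569 to 59133970 on the plus strand, and Ntrk3 (ENSMUSG00000059146) spans chromosome 7 from 78175959 to 78738012 on the minus strand. Ngfr (ENSMUSG00000000120) lies on chromosome 11 from 95568818 to 95587735 on the minus strand. Bdnf has 11 annotated transcripts, Ntrk2 has 10 and Ntrk3 has 20. The deposited values are 1 per gene, so they do not separate the Bdnf transcripts of different start sites, nor full-length Trk receptors from the truncated forms that lack the kinase.

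Bdnf and Ntrk2 moved together across libraries, as described further on, and the sequences before their annotated starts are shown for that reason. Promoter windows of 250 bases before a start came from RefSeq on GRCm38.p6, with 7 windows for Bdnf, 2 for Ntf3 and 1 each for Ntrk2 and Ngfr. Vgf and Ntrk3 were not matched. Each window was searched on both strands for the cAMP response element TGACGTCA, for its variant TGACGTG, which reads CACGTCA on the other strand, and for the AP-1 site TGANTCA. The palindromic element was in none of the members' windows and in 1.55% of all 32851 windows. One Bdnf window held the variant, 37 bases before the start, and 1.65% of all windows held it. Another Bdnf window held an AP-1 match, 152 bases before the start, and 6.75% of all windows held one. These shares are per window, and Bdnf had 7 windows in which a match could occur. Capitals mark the match in the first 2 sequences, and the Ntrk2 window held none. A match of letters is not a measured binding site.
Bdnf, chr2:109692186-109692435, plus strand: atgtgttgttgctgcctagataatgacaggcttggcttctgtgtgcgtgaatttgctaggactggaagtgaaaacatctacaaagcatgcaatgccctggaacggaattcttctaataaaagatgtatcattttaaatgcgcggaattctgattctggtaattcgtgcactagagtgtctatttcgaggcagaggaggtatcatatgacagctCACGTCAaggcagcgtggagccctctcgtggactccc
Bdnf, chr2:109676782-109677031, plus strand: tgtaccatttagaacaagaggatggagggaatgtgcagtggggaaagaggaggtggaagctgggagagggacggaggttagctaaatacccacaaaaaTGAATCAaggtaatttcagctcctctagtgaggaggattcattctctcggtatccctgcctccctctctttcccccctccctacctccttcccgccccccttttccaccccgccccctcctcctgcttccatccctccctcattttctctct
Ntrk2, chr13:58806319-58806568, plus strand: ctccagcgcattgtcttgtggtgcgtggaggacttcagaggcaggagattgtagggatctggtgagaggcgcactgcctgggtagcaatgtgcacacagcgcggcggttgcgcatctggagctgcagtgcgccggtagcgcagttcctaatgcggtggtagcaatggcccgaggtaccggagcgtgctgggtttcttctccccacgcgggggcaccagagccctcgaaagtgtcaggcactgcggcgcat

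The libraries held 23901635 to 37769417 recovered reads, and values below are normalised read counts, which the authors scaled by 1 size factor per library. Some libraries stood apart. The mean log2 level of 16 pseudogenes was 1.78 to 2.60 in 9 of the 10 Het fluoxetine libraries, all but male replicate 1. It was 3.15 in WT vehicle female replicate 2 and at least 4.60 in the other 50. These pseudogenes were chosen as called between Het and WT under fluoxetine with a log2 fold beyond 2 in size. A difference between those 2 groups was thus fixed by the choice. The Het fluoxetine libraries also held relatively fewer reads of GC-rich genes: over 12472 genes, GC content and the log2 deviations of a library had a correlation of -0.47 to -0.15 in Het fluoxetine libraries, against -0.22 to 0.35 in Het vehicle libraries. WT lithium male replicate 5 had the lowest such correlation of the 60, -0.76. For these reasons 2 further fits were made. One fit corrects each library for GC content. The other adds a term for the 10 libraries low in the pseudogenes, so that its Het fluoxetine estimate rests on male replicate 1 and WT vehicle female replicate 2. As 9 of those 10 libraries are Het fluoxetine, the term nearly coincides with that group. A loss of calls there was largely built in. The drug effect in Het and the difference of those 10 libraries cannot otherwise be told apart. Among the members GC content was lowest in Bdnf (40.9% of the longest transcript) and Ntrk3 (43.6%) and highest in Ngfr (58.6%) and Vgf (64.1%).

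Per kilobase of the longest coding transcript, Ntrk2 was the most abundant member in WT vehicle cortex, with 2254 ± 38.9 normalised reads per kb (SD, n = 10). Vgf followed with 1792 ± 198, Ntrk3 with 281 ± 23.3 and Bdnf with 216 ± 33.7. Ntf3 (13.4 ± 4.37 per kb) and Ngfr (9.19 ± 3.52 per kb) were far lower. The place of Ntrk3 depends on the transcript length used, since its longest transcript has 19703 bases and its median coding transcript 2726. With median lengths Ntrk3 reached 2028 ± 169 per kb and Vgf 2103 ± 233 per kb in WT vehicle cortex, a difference within their spread. Ntf3 was counted by 9 to 38 reads a library and Ngfr by 12 to 66, so only large differences in these 2 genes could be seen at this depth.

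In vehicle-treated mice no member passed the test between Het and WT. Of the 6 members 0 passed limma at an adjusted p of 0.05, 0 had an unadjusted p under 0.05 and 0 passed edgeR, where 0.590% of all tested genes passed limma. The log2 fold change of Het over WT was 0.05 for Bdnf (95% confidence interval -0.15 to 0.24), -0.06 for Ntf3, 0.07 for Vgf, 0.00 for Ntrk2, 0.06 for Ntrk3 and -0.23 for Ngfr (-0.64 to 0.18). The interval for Ntrk2, -0.05 to 0.06, was the narrowest of the 6, and those of the low genes Ntf3 and Ngfr were the widest.

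**Figure D1:**
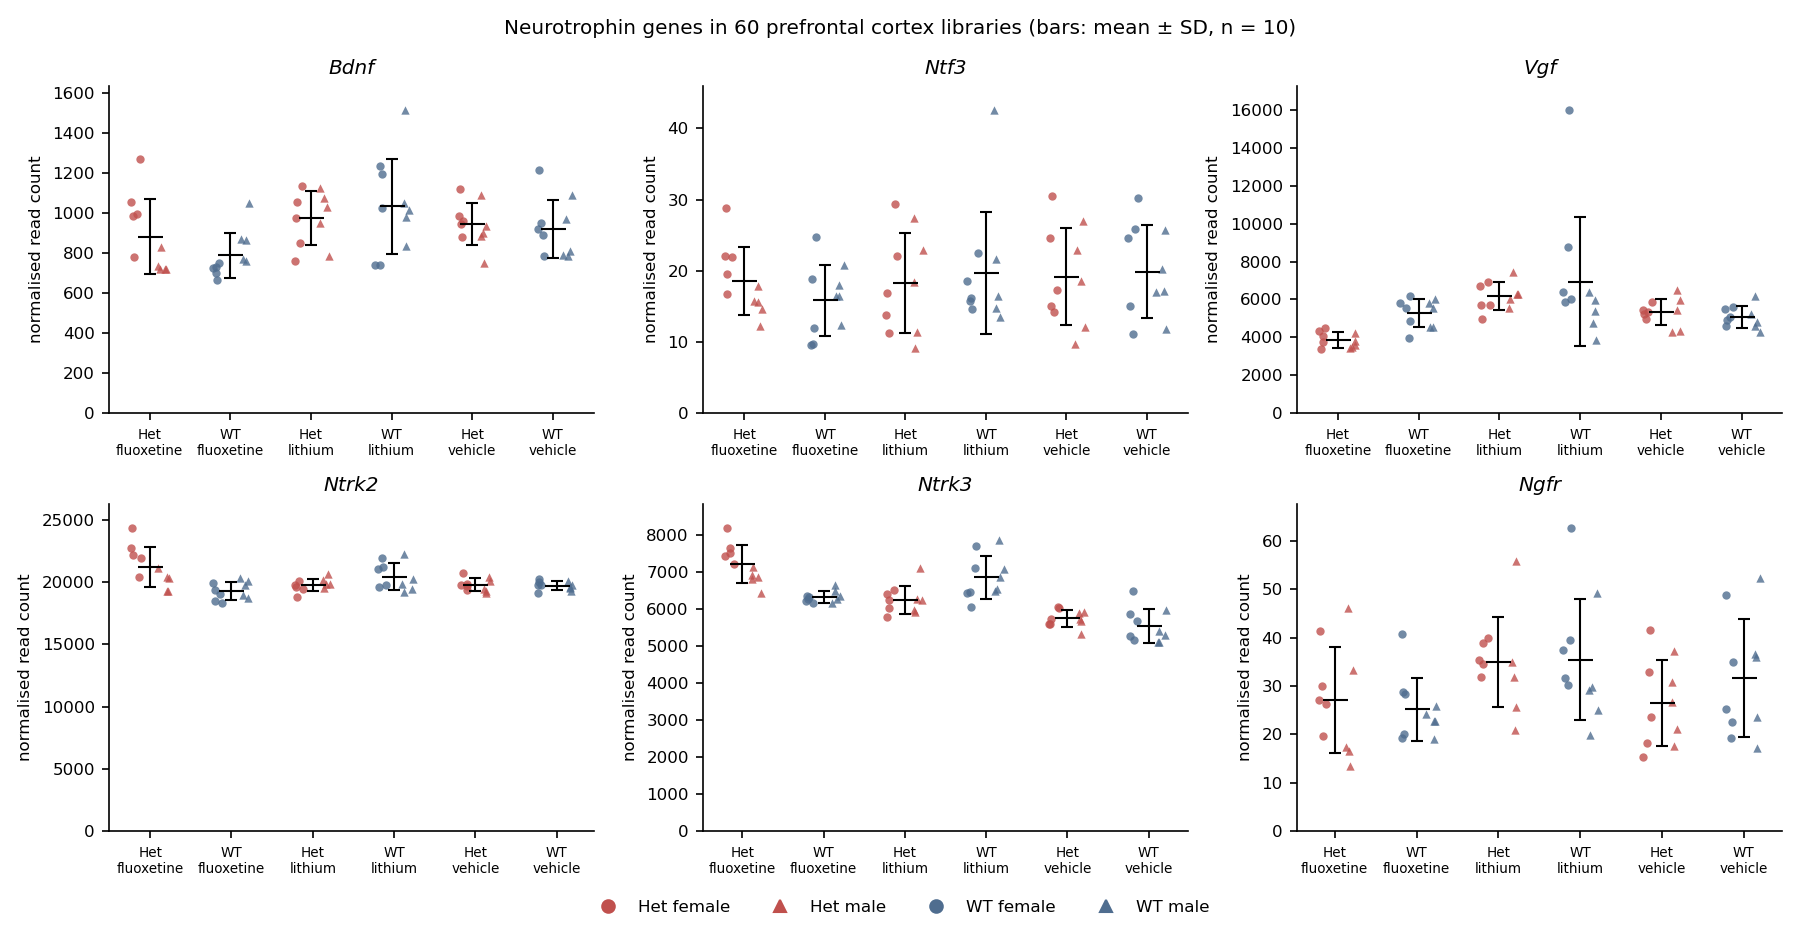
Normalised read count of each member in every library, by genotype and drug, with circles for females and triangles for males. Bars give the mean ± SD of 10 libraries. Ntrk3 is higher in both fluoxetine groups and in WT lithium than in vehicle, Vgf is lowest in Het fluoxetine, and 1 WT lithium female has a Vgf value of 15985.

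Bdnf, the main neurotrophin of the cortex, had its lowest group mean in WT fluoxetine mice and its highest in WT lithium mice. It averaged 882 ± 188 in Het fluoxetine, 789 ± 113 in WT fluoxetine, 975 ± 136 in Het lithium, 1034 ± 238 in WT lithium, 947 ± 106 in Het vehicle and 921 ± 144 in WT vehicle libraries (SD, n = 10 each). Ranked by their means, neighbouring groups differed by less than the SD of either. The 5 WT fluoxetine females had 665, 724, 729, 753 and 702 normalised reads, against 949, 1218, 788, 892 and 922 in the 5 WT vehicle females. All 5 of these treated females were below all 5 vehicle females. In males the ranges overlapped, at 760 to 1052 with fluoxetine and 784 to 1089 with vehicle. Over both sexes the log2 fold change of fluoxetine over vehicle in WT was -0.22 (SE 0.10), which did not pass limma (adjusted p = 0.15). The difference of this effect between the sexes was -0.36 (SE 0.19), with an adjusted p of 0.94.

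Set against each other, the drugs gave different Bdnf levels in WT mice. WT fluoxetine libraries ran from 665 through a median of 756 to 1052, and WT lithium libraries from 740 through a median of 1020 to 1515. The ranges overlapped, with 4 fluoxetine libraries below every lithium library. The log2 fold change of fluoxetine over lithium was -0.37 (SE 0.10, limma adjusted p = 0.0083), one of 2 members called there, where 13.1% of all tested genes passed. Leaving out any 1 library kept the call, with the highest adjusted p, 0.035, without WT lithium male replicate 5, whose value of 1515 was the highest of the 60. A fit to the 2 groups alone gave an adjusted p of 0.058. The same contrast in Het mice was -0.16 (SE 0.10, adjusted p = 0.21), and it was -0.32 (adjusted p = 0.010) with GC correction and -0.39 (adjusted p = 0.70) with the library term. Neither drug against vehicle gave a call for Bdnf in any genotype under the deposited scaling.

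Bdnf in the Het fluoxetine group was split by sex. The 5 Het fluoxetine females had 988, 783, 1271, 1057 and 994, above the 665 to 753 of the WT fluoxetine females without overlap. The 5 Het fluoxetine males had 721, 719, 737, 832 and 723, against 760, 1052, 866, 769 and 871 in WT fluoxetine males, and here 4 Het males lay below all WT males. The log2 fold of Het over WT was 0.50 in females and -0.20 in males. The difference between the sexes, 0.70 (SE 0.19), did not pass limma across all genes (adjusted p = 0.17). Averaged over the sexes the fold was 0.15 (SE 0.10, adjusted p = 0.23), and it turned to -0.03 with GC correction and -0.09 with the library term, with no call. Against Het vehicle the fluoxetine fold in Het was -0.12 (SE 0.10, adjusted p = 0.34). It was -0.28 (adjusted p = 0.016) with GC correction and -0.35 (SE 0.18, adjusted p = 0.55) with the library term, so the call depended on how GC content was treated.

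Ntf3, the ligand of TrkC, was scarce in every group. Its group means were 18.5 ± 4.79 in Het fluoxetine, 15.9 ± 4.99 in WT fluoxetine, 18.3 ± 7.04 in Het lithium, 19.6 ± 8.58 in WT lithium, 19.2 ± 6.81 in Het vehicle and 19.9 ± 6.48 in WT vehicle (SD, n = 10 each). All 6 groups overlapped. Its largest drug effect was in WT fluoxetine, a log2 fold of -0.30 with a 95% confidence interval of -0.72 to 0.12, and none passed the test.

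Vgf, the neurotrophin-induced peptide precursor, fell in Het mice given fluoxetine and, averaged over the sexes, was raised in WT mice given lithium. Het fluoxetine females had 4354, 3397, 4498, 4062 and 3760, against 5894, 5257, 5446, 4997 and 5314 in Het vehicle females. Vgf in Het fluoxetine males was 4218, 3577, 3509, 3824 and 3436, against 4338, 6485, 5424, 5948 and 4271 in Het vehicle males. Within each sex no treated library reached the vehicle range. The log2 fold change was -0.46 (SE 0.11, limma adjusted p = 0.0011), with 10 of 10 libraries below the vehicle mean of their sex. Vgf, Ntrk2 and Ntrk3 were the 3 of 6 members called for fluoxetine in Het, where 39.0% of all tested genes passed. With GC correction the calls were Ntrk3 and Bdnf, where 19.6% of all tested genes passed, and with the library term 0 of 6 were called, where 0.275% passed. In WT mice Vgf averaged 5297 ± 752 with fluoxetine and 5079 ± 562 with vehicle (SD, n = 10 each), a log2 fold of 0.05 (SE 0.11) that did not pass (adjusted p = 0.83). The difference between the genotypes in the fluoxetine effect was -0.52 (SE 0.16, limma adjusted p = 0.016). Het fluoxetine was also below WT fluoxetine (-0.45, SE 0.11, adjusted p = 0.0014) and below Het lithium (-0.67, SE 0.11, adjusted p = 2.0e-05), where all 10 fluoxetine libraries lay below all 10 lithium libraries.

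The Vgf results in Het depended on the treatment of GC content. With GC correction the fluoxetine fold in Het was -0.21 (SE 0.09, adjusted p = 0.11), the difference between genotypes was -0.21 (adjusted p = 0.35) and Het over WT in fluoxetine was -0.11 (adjusted p = 0.49). The contrast with lithium in Het remained called, at -0.42 (adjusted p = 0.0017). With the library term the 4 estimates were -0.32, -0.36, -0.31 and -0.53, with adjusted p of 0.72, 0.80, 0.94 and 0.62. Vgf has the highest GC content of the 6 members.

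WT lithium libraries had Vgf values from 3886 through a median of 5994 to 15985, against 4310 through 4995 to 6184 in WT vehicle libraries. Females did not overlap: 6017, 6411, 8787, 5852 and 15985 with lithium lay above 5485, 4898, 4587, 5093 and 5612 with vehicle. Males overlapped, at 3886 to 6416 with lithium and 4310 to 6184 with vehicle. The log2 fold was 0.63 in females and 0.06 in males. The difference between the sexes, 0.57 (SE 0.23), did not pass limma (adjusted p = 0.085). Over both sexes the log2 fold change was 0.35 (SE 0.11, limma adjusted p = 0.024), with higher values in 8 of 10 libraries. Without WT lithium female replicate 5, whose value of 15985 stood far above the next, 8787, it was 0.22 (adjusted p = 0.075), and without WT lithium male replicate 1 it was 0.31 (adjusted p = 0.052). A fit to these groups alone gave an adjusted p of 0.15. In Het mice lithium gave 6161 ± 735, against 5337 ± 689 with vehicle (SD, n = 10 each), a log2 fold of 0.21 (SE 0.11, adjusted p = 0.41).

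**Figure D2:**
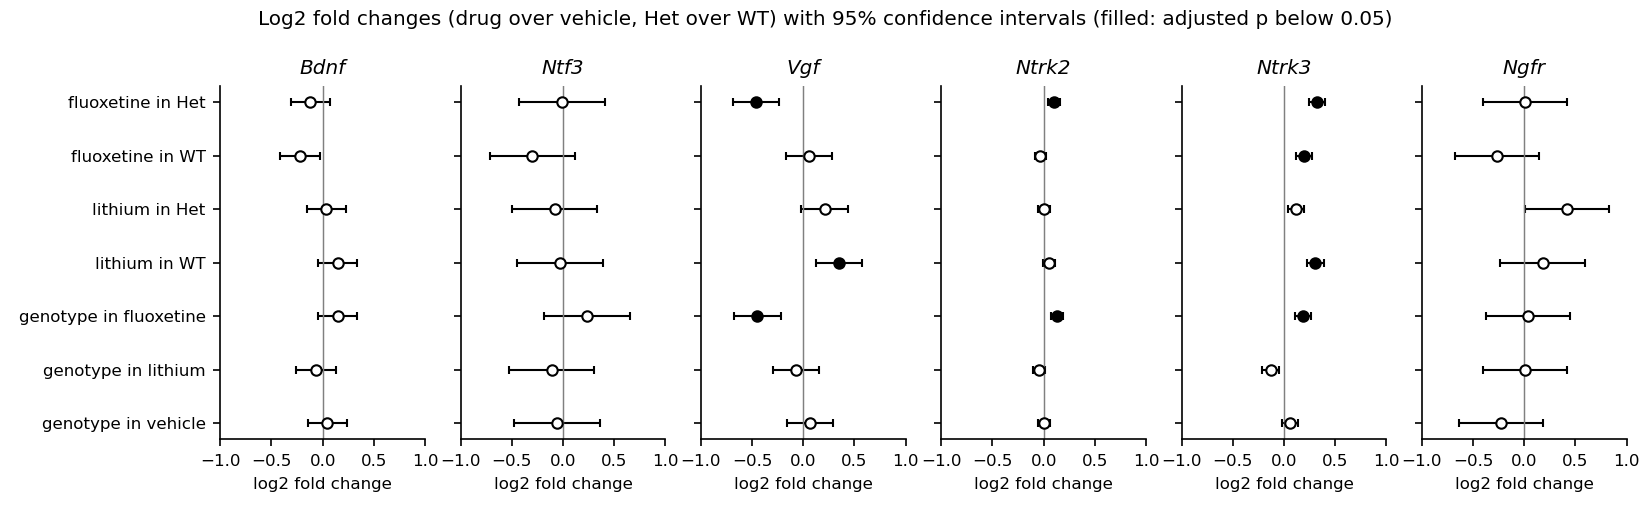
Log2 fold changes of the 6 members, drug over vehicle within a genotype and Het over WT within a treatment, with 95% confidence intervals from the model over all libraries. Filled points passed an adjusted p of 0.05: Ntrk3 in 4 comparisons, Vgf in 3 and Ntrk2 in 2, and Bdnf, Ntf3 and Ngfr in none.

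Ntrk3, the gene for TrkC, was called in 4 of the 7 comparisons of a drug with vehicle or of Het with WT. It was raised by fluoxetine in both genotypes and by lithium in WT. Het fluoxetine females had 7648, 7212, 8175, 7515 and 7413, against 5578, 6035, 5724, 6007 and 5580 in Het vehicle females. Ntrk3 in Het fluoxetine males was 6418, 6848, 6796, 7136 and 6919, against 5723, 5668, 5907, 5895 and 5313 in Het vehicle males. All 10 treated libraries lay above all 10 vehicle libraries. The log2 fold was 0.33 (SE 0.04, limma adjusted p = 1.5e-08), or 1.25-fold. With GC correction it was 0.21 (SE 0.03, adjusted p = 4.8e-06), and with the library term 0.17 (SE 0.07, adjusted p = 0.42).

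In WT mice fluoxetine gave Ntrk3 values of 6219, 6265, 6163, 6311 and 6338 in females, against 5864, 6478, 5675, 5263 and 5144 with vehicle, and only WT vehicle female replicate 2 exceeded the treated females. Males had 6272, 6482, 6332, 6154 and 6653 with fluoxetine, against 5107, 5409, 5094, 5978 and 5280 with vehicle, with no overlap. The log2 fold was 0.20 (SE 0.04, limma adjusted p = 0.00062), the 1 call among the members in that comparison, where 8.43% of all tested genes passed. It was called in each of the 20 fits without 1 library (0.18 to 0.22) and under all 10 other settings (adjusted p at most 0.0030). The difference between the genotypes, 0.13 (SE 0.06), did not pass (adjusted p = 0.086), although it did with only those 4 groups fitted (adjusted p = 0.042) and without WT vehicle female replicate 5 (adjusted p = 0.047). It was 0.02 with GC correction (adjusted p = 0.84) and -0.05 with the library term (adjusted p = 0.96).

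Lithium in WT mice gave Ntrk3 values of 6432, 6440, 7096, 7687 and 6042 in females and 7061, 6466, 6860, 6525 and 7845 in males, against the same WT vehicle libraries. Males did not overlap, and in females 3 of the 5 treated libraries lay below WT vehicle female replicate 2. The log2 fold was 0.31 (SE 0.04, limma adjusted p = 9.3e-07) and was called in all 20 fits without 1 library and under all 10 other settings. With Vgf, 2 of 6 members were called for lithium in WT, where 19.2% of all tested genes passed. In Het mice lithium gave 6240 ± 375, against 5743 ± 224 with vehicle (SD, n = 10 each), a log2 fold of 0.12 (SE 0.04, adjusted p = 0.13), which became a call with GC correction (0.12, adjusted p = 0.039). The genotype difference in the lithium effect was -0.19 (SE 0.06, adjusted p = 0.17). Since both drugs are compared with the same vehicle libraries, their effects on Ntrk3 are not independent of each other.

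In WT lithium libraries, where 9.87% of all tested genes fell, markers of several other cell types were also lower than in WT vehicle. These were 6 of 6 for microglia, 6 of 6 for pericytes and smooth muscle and 6 of 7 for meningeal fibroblasts. For astrocytes and for endothelial cells 4 of 6 each were lower. Of oligodendrocyte markers 0 of 6 were called, and of precursor markers 1 of 5 was lower. The summed level of the microglial markers was 6046 to 9019 in WT lithium, against 8698 to 10374 in WT vehicle. For pan-neuronal markers 0 of 6 passed, with a summed level of 143114 to 177268 in WT lithium and 135912 to 170466 in WT vehicle. No listed marker with deposited values was at 0, and of 5 cholinergic markers 3 had such values. The part of cell composition in the Ntrk3 and Vgf results was not tested, and in bulk tissue fewer cells of a type and less RNA per cell cannot be told apart. With fluoxetine in Het, where 19.9% of all tested genes fell, 4 of 6 endothelial and 3 of 8 excitatory-neuron markers fell, and of 5 markers of oligodendrocyte precursors 3 rose and 1 fell. GC correction, where 19.6% of all tested genes passed, left 3 endothelial, 0 excitatory-neuron and 2 precursor markers called. The library term, where 0.275% passed, left 0 of all 3 lists. With fluoxetine in WT, where 4.08% of all tested genes fell, 3 of 6 endothelial markers fell. So did 1 of 6 for pericytes and smooth muscle and 1 of 5 for precursors, and 1 of 6 pan-neuronal markers rose. With GC correction, where 1392 of the 17810 tested genes fell, 4 endothelial, 3 pericyte and smooth muscle, 3 astrocyte and 1 precursor marker fell. In that fit 1 precursor and 1 pan-neuronal marker rose. The summed endothelial level was 5312 to 6671 in Het fluoxetine, against 5923 to 9348 in Het vehicle, and 5009 to 8178 in WT fluoxetine, against 6023 to 7925 in WT vehicle. The part of these cells in the fluoxetine results was not tested.

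Ntrk2, the gene for TrkB, had the smallest spread of the 6 members across the 60 libraries, from 18340 to 24333 with a coefficient of variation of 5.32%. The 5 Het fluoxetine females had 20381, 21924, 24333, 22193 and 22725, against 19754, 20763, 19851, 19686 and 19332 in Het vehicle females, and overlapped by 1 library. Het fluoxetine males, at 19254 to 21157, overlapped Het vehicle males, at 19127 to 20382. The log2 fold in Het was 0.10 (SE 0.03, limma adjusted p = 0.0056), or 1.07-fold. In WT the fold was -0.03 (SE 0.03, adjusted p = 0.58). The genotype difference was 0.13 (SE 0.04, adjusted p = 0.018), one of 2 members called, where 24.0% of all tested genes passed. With GC correction that difference was 0.12 (adjusted p = 0.064), and with the library term 0.09 (adjusted p = 0.79). The fold in Het was 0.07 with GC correction (adjusted p = 0.070) and 0.06 with the library term (adjusted p = 0.80).

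Between the genotypes under fluoxetine 3 of 6 members were called, Vgf, Ntrk2 and Ntrk3, where 39.5% of all tested genes passed. Ntrk2 was 0.13 higher in Het than in WT on the log2 scale (SE 0.03, limma adjusted p = 0.00028). Het females were all above the WT female range of 18340 to 19965, and males overlapped. The log2 fold was 0.23 in females and 0.04 in males. The difference between the sexes, 0.19 (SE 0.06), did not pass limma (adjusted p = 0.20). Ntrk2 was the 1 member still called with GC correction (0.13, adjusted p = 0.0020), where 13.1% of all tested genes passed. Ntrk3 was 0.19 higher (SE 0.04, adjusted p = 0.00022), and 0.07 higher with GC correction (adjusted p = 0.17). With the library term 0 of the 6 members were called, where 0.0393% passed. Under lithium 0 of 6 members were called by limma and 0 by edgeR, with 1 at an unadjusted p under 0.05 (Ntrk3, -0.13), where 0.0281% of all tested genes passed.

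Lithium in Het mice gave 0 calls of 6 by limma and 0 by edgeR, with 2 at an unadjusted p under 0.05 (Ntrk3 and Ngfr), where 0.983% of all tested genes passed. The genotype-by-lithium difference also gave 0 of 6 by both tests, with 1 unadjusted (Ntrk3), where 0.0674% passed. Fluoxetine against lithium in Het gave 3 calls of 6, Vgf, Ntrk2 (0.10, adjusted p = 0.0071) and Ntrk3 (0.21, adjusted p = 0.00011), where 32.8% passed. With GC correction neither Ntrk2 (0.08, adjusted p = 0.064) nor Ntrk3 (0.09, adjusted p = 0.058) passed there, and with the library term they were at 0.06 (adjusted p = 0.93) and 0.05 (adjusted p = 0.97), with 0 of 6 members called. Fluoxetine against lithium in WT called Ntrk2 beside Bdnf, at -0.08 (SE 0.03, adjusted p = 0.049), a call kept in only 7 of the 20 fits without 1 library. None of the 42 tests of a sex difference over 7 contrasts and 6 members passed limma or edgeR, and 6 had an unadjusted p under 0.05. Over all genes 0 passed for 6 of these contrasts and 9.64% (1716 genes) for the sex difference in the lithium effect in WT, a count that fell to 1 gene without WT lithium female replicate 5, without WT lithium male replicate 5 or without WT vehicle female replicate 2.

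Ngfr, the gene for p75, averaged 27.1 ± 10.9 in Het fluoxetine, 25.2 ± 6.48 in WT fluoxetine, 35.0 ± 9.31 in Het lithium, 35.5 ± 12.5 in WT lithium, 26.5 ± 8.94 in Het vehicle and 31.7 ± 12.1 in WT vehicle libraries (SD, n = 10 each). All groups overlapped. The highest drug effect was lithium in Het, a log2 fold of 0.42 with a 95% confidence interval of 0.00 to 0.83, which did not pass (adjusted p = 0.36).

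**Figure D3:**
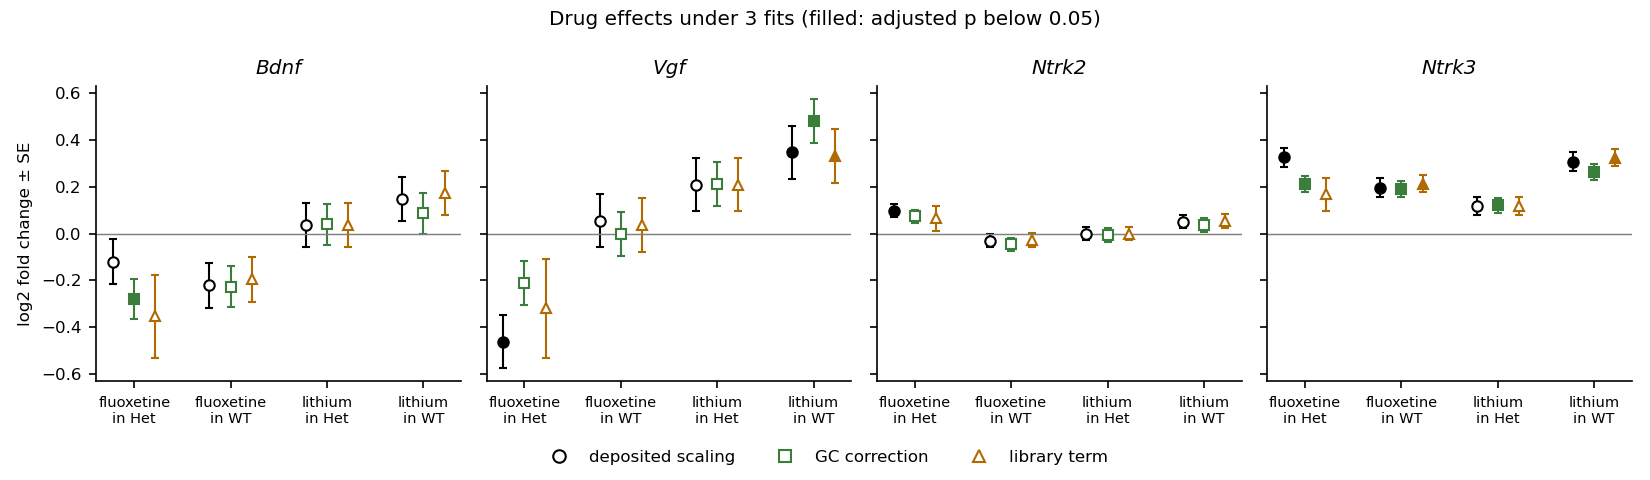
Drug effects on 4 members under the deposited scaling, with GC correction and with the library term, as log2 fold change ± SE. Filled symbols passed an adjusted p of 0.05. Ntrk3 is called for fluoxetine and lithium in WT under all 3 fits, whereas the Het fluoxetine estimates have wide errors and no call with the library term.

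Members were then compared library by library. Deviations from the means of the 12 genotype, drug and sex groups were correlated over the 60 libraries for all 15 pairs, with permutation within groups and Benjamini-Hochberg adjustment over the pairs. Of the 15 pairs 4 passed under the deposited scaling. Libraries high in Bdnf were high in Ntrk3 (Pearson r = 0.69, permutation p = 2e-05, adjusted p = 0.0003, Spearman rho = 0.69), and r was 0.63 without the 2 libraries farthest from the Bdnf median. Bdnf and Ntrk2 also went together (r = 0.51, rho = 0.49, permutation p = 0.00071, adjusted p = 0.0053, and 0.46 without the 2 farthest libraries), as did Ntrk2 and Ntrk3 (r = 0.44, rho = 0.43, permutation p = 0.0019, adjusted p = 0.0071, and 0.32). Bdnf and Ngfr went in opposite directions (r = -0.40, rho = -0.45, permutation p = 0.0015, adjusted p = 0.0071, and -0.41). The libraries share a depth range and the GC shift described above. With GC correction these pairs had r of 0.62, 0.55, 0.39 and -0.39, and 9 of 15 pairs passed, among them Bdnf and Vgf (r = 0.50, against 0.02 under the deposited scaling). Without the 3 libraries of the largest residuals the first 4 pairs had r of 0.62, 0.47, 0.39 and -0.37. Bdnf and Vgf passed there too, without GC correction (r = 0.47, permutation adjusted p = 0.011).

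**Figure D4:**
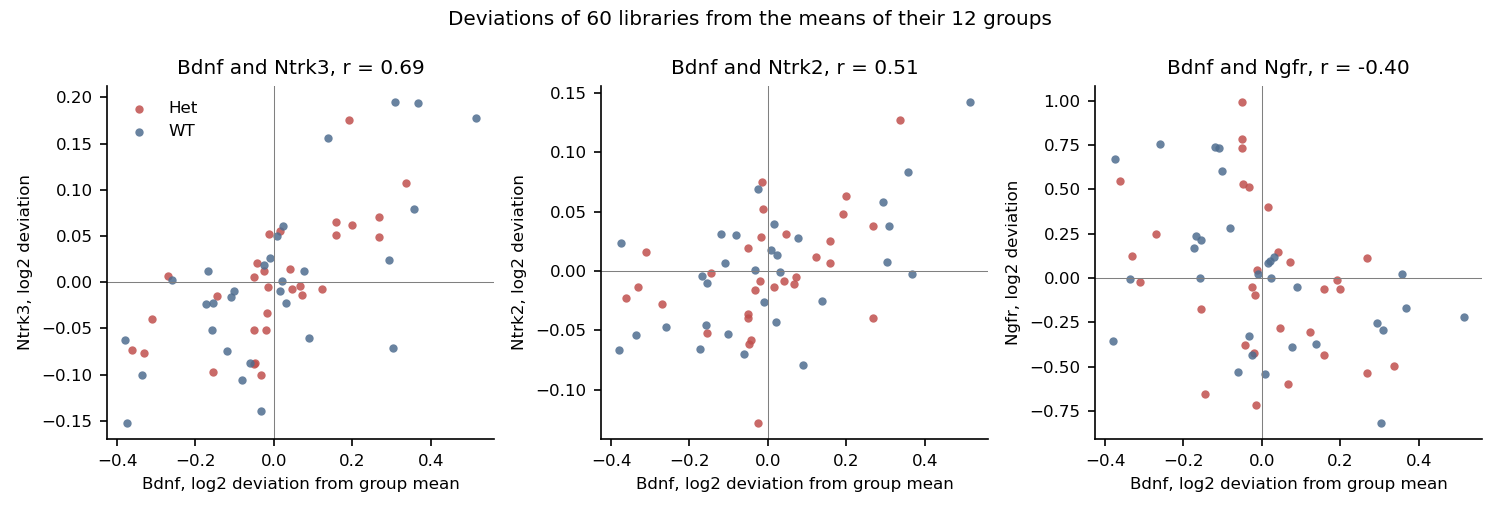
Log2 deviations of the 60 libraries from the means of their 12 groups, Bdnf on the x axis against Ntrk3, Ntrk2 and Ngfr on the y axes, coloured by genotype. Bdnf and Ntrk3 deviate together (r = 0.69), as do Bdnf and Ntrk2 (r = 0.51), and Bdnf and Ngfr deviate in opposite directions (r = -0.40).

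Genes with the most similar pattern over the 60 libraries, by Pearson r of log2(value + 1) among genes with a mean of at least 100, are given as a description. For Bdnf these were Homer1 (0.83), a synaptic scaffold gene that activity induces, Hipk3 (0.79), Pcsk1 (0.77), a convertase of secreted precursors, Fem1b (0.76) and Socs5 (0.75). For Ntrk3 they were the GTPase-activating gene Rasal2 (0.90), the NMDA receptor subunit gene Grin2a (0.87), the kinase gene Tnik (0.86), the calcium channel gene Cacna1e (0.84) and the potassium channel gene Kcnma1 (0.84). For Ntrk2 the highest was Tulp4 (0.80), for Vgf Them6 (0.88), for Ngfr Nrsn2 (0.69) and for Ntf3 Tmem150c (0.53). For Ntrk3 the likeness of Tnik was 0.58 within groups, and that of Homer1 to Bdnf was 0.83 within groups.

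The further genes of the pathway were counted from lists chosen with earlier results of these data known. Of 20 genes that BDNF induces in cortical neurons, most of them transcription factors of the early activity response, 15 fell and 0 rose with fluoxetine in Het, where 19.9% of all tested genes fell. The list's median log2 fold was -0.41, against 0.00 over all genes tested. The strongest calls were Egr1 (-1.06, SE 0.12), Nr4a3 (-0.85, SE 0.11), Egr2 (-1.39, SE 0.19) and Fosb (-1.22, SE 0.19). With GC correction 12 fell, where 1858 of the 17810 tested genes fell. With the library term 0 were called, where 0.275% of all tested genes passed. With fluoxetine in WT 9 fell and 0 rose, where 4.08% of all tested genes fell, and the median was -0.30, against 0.00 over all genes. Nr4a3 (-0.88), Egr2 (-1.16) and Egr1 (-0.69) led there. With the library term 9 fell too, where 748 of the 17810 tested genes fell. Homer1, the gene most like Bdnf, was at -0.22 in WT and 0.03 in Het and passed in neither.

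Lithium was compared with the same vehicle libraries. In WT 6 of the 20 fell, where 9.87% of all tested genes fell, led by the transcription factor gene Klf10 (-0.55) and the synaptic gene Arc (-1.03), and the list's median was -0.19, against 0.00 over all genes. In Het 2 of 20 fell, Klf10 (-0.46) and Nr4a3 (-0.43), where 0.500% of all tested genes fell. Between Het and WT vehicle 0 of 20 passed limma and 0 passed edgeR, with 1 at an unadjusted p under 0.05. Of all tested genes 0.590% passed limma there.

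**Figure D5:**
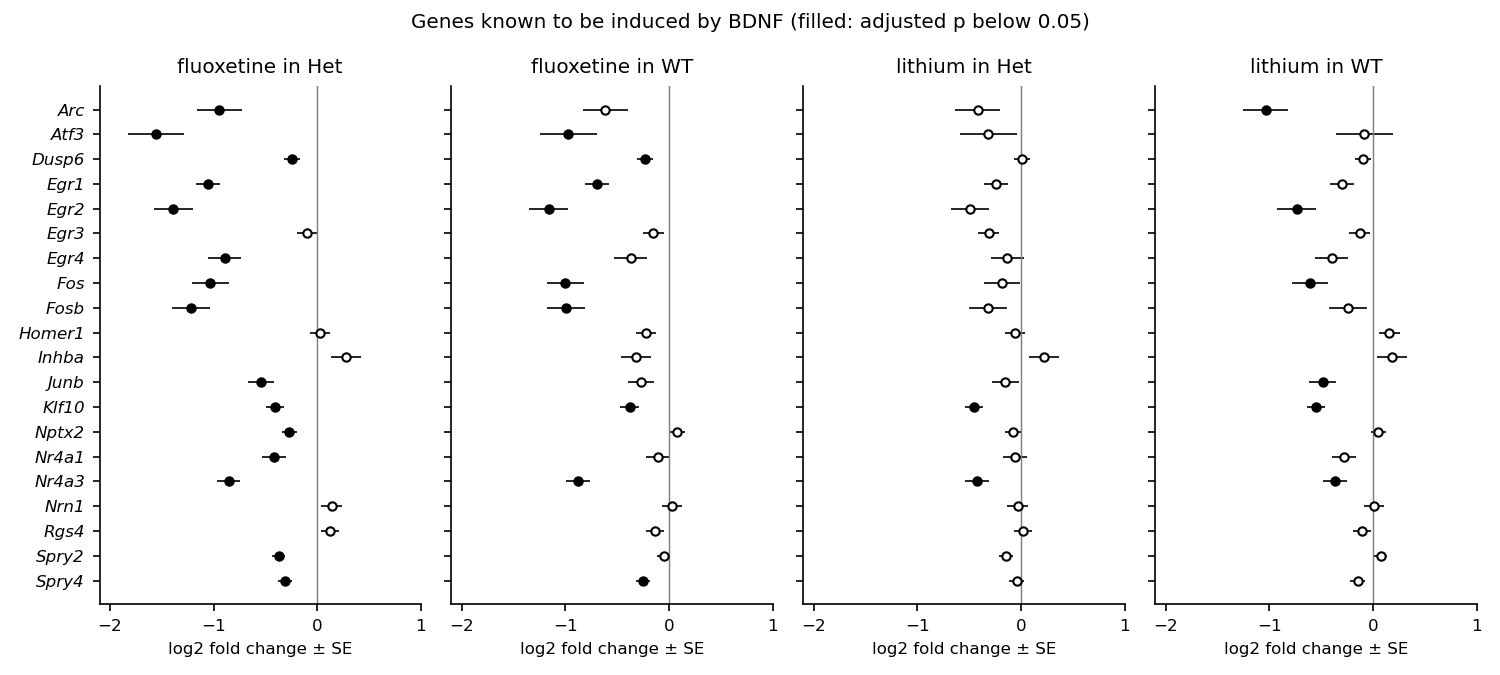
Log2 fold change ± SE of 20 genes known to be induced by BDNF, for fluoxetine and lithium over vehicle in each genotype. Filled points passed an adjusted p of 0.05, and all of them lie below 0: 15 for fluoxetine in Het, 9 for fluoxetine in WT, 2 for lithium in Het and 6 for lithium in WT.

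Of 9 further genes of neurotrophins and their receptors 7 were tested. With fluoxetine in Het 3 rose and 1 fell, where 39.0% of all tested genes passed. Fluoxetine in WT raised 1, where 8.43% passed, and lithium in WT raised 1, where 19.2% passed. Lithium in Het changed 0 of 7 by limma and 0 by edgeR, where 0.983% passed, with 1 at an unadjusted p under 0.05. The sorting receptor gene Sorcs1 rose in 3 drug comparisons. Its log2 fold was 0.22 (adjusted p = 0.00091) with fluoxetine in Het, 0.17 (adjusted p = 0.037) with fluoxetine in WT and 0.25 (adjusted p = 0.00075) with lithium in WT, and 0.06 (adjusted p = 0.69) with lithium in Het. With GC correction its call for fluoxetine in WT was lost (0.15, adjusted p = 0.075). Sort1, which encodes sortilin, a partner of p75 (0.13, adjusted p = 0.0066), and its relative Sorcs3 (0.22, adjusted p = 0.0083) rose with fluoxetine in Het, and Nradd fell there (-0.60, adjusted p = 0.012). With GC correction 4 of the 7 were called in that comparison, all of them higher, where 19.6% of all tested genes passed. These included Sorcs1 (0.16), Sort1 (0.16) and Sorcs3 (0.23), and Nradd was not called (-0.45, adjusted p = 0.094). With the library term Sorcs1 was at 0.03, Sort1 at 0.11, Nradd at -0.21 and Sorcs3, with its direction turned, at -0.01, and none was called. Ntf5 was too low to be tested.

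Of 45 genes for Trk adaptors and kinase cascades, 12 rose and 14 fell with fluoxetine in Het, where 39.0% of all tested genes passed in either direction, and the median was 0.01. With GC correction 5 of the 45 were called, where 19.6% of all tested genes passed, and with the library term 0, where 0.275% passed. In WT 3 fell and 0 rose with fluoxetine, where 8.43% of all tested genes passed: the kinase gene Akt2 (-0.18), the adaptor gene Crkl (-0.12) and the Ras activator gene Sos2 (-0.14). Lithium in WT lowered 8, with Akt2 (-0.23), Rps6ka1 (-0.29), Akt1 (-0.18) and the ERK1 gene Mapk3 (-0.22) first, and raised 2, where 19.2% of all tested genes passed. Lithium in Het lowered Mapk3 (-0.27, SE 0.06, adjusted p = 0.0083) and no other gene of the list, where 0.983% passed.

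The all-gene shares called were 8.43% for fluoxetine in WT, 39.0% for fluoxetine in Het, 19.2% for lithium in WT and 0.983% for lithium in Het. For fluoxetine in Het the share was 19.6% under GC correction and 0.275% with the library term. Of 26 regulators of Bdnf transcription, fluoxetine in WT changed 2: the repressor gene Bhlhe40 fell (-0.48, adjusted p = 6.6e-05) and the CREB coactivator gene Crtc2 rose (0.19, adjusted p = 0.024). In Het 9 rose and 11 fell, with Bhlhe40 at -0.45 and the histone deacetylase genes Hdac5 (-0.47) and Hdac4 (-0.28) among them, with 8 called under GC correction and 0 with the library term. Lithium in WT raised Crebbp (0.13) and Mef2a (0.13) and lowered Hdac5 (-0.31) and Usf2 (-0.13), and lithium in Het changed 0 of 26 by limma and 0 by edgeR, with 3 at an unadjusted p under 0.05. Of 17 genes that process or release neurotrophins, fluoxetine in WT raised the convertase gene Pcsk7 (0.16), a call lost with the library term, and lowered the matrix protease gene Mmp2 (-0.44). Lithium in WT raised 4, among them Htt (0.23) and Pcsk7 (0.18), and lowered 3, among them Pcsk6 (-0.36) and Serpine2 (-0.24). In Het fluoxetine raised 5, with the secretion gene Cadps (0.17) among them, and lowered 3, with Furin (-0.35) first, with 3 called under GC correction and 0 with the library term. Lithium in Het changed 0 of 17 by limma and 0 by edgeR, with 4 at an unadjusted p under 0.05. The median log2 folds of these 3 lists over the 4 drug comparisons ran from -0.09, for the regulators with fluoxetine in Het, to 0.09, for the processing genes with lithium in WT, against 0.00 over all genes.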

How the data were processed

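RNA-seq values of 60 libraries were analysed. The kit was TruSeq Stranded mRNA, per the labels' protocols. The submitters' processing notes list the build GRCm38, R 3.6.0, Salmon 0.11.2 and DESeq2 1.19.11, with no roles, and the sources used here do not give whether strand entered the counting. Deposited values are a signal per gene, read counts that the authors divided by 1 size factor per library: whole multiples of 1 step per column (100% of values within 0.001). Gene symbols, coordinates, lengths and GC content came from GENCODE M21, which held 18077 of the 18088 identifiers.

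Tests used limma 3.58.1 (R 4.3.3, trend and robust settings) on log2(value + 1), with 12 group means, 48 residual degrees of freedom and 18 contrasts. The 17810 genes tested reached 10 in 5 or more libraries. Fold changes on this scale understate the change of low genes. Calls have a Benjamini-Hochberg adjusted p below 0.05 over all genes tested. As the values are not counts, edgeR 4.0.16 (quasi-likelihood) on recovered reads of 17776 genes was an alternative. Other alternatives were TMM scaling, no filter, a pseudocount of 5, fitting the compared groups alone, the replicate number as a block, a GC correction (loess of span 0.3 on the GC content of the longest transcript) without and with that block, a term for 10 libraries low in 16 pseudogenes, and leaving out each library or the 3 with the largest residuals. The 16 pseudogenes were chosen by their difference between Het and WT under fluoxetine. Correlations used 100000 permutations within groups. The model was tested on simulated reads with no GC shift and no outlying libraries. The planted changes were larger than those seen in Ntrk2 and Ntrk3, so that test does not cover these features of the data.

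The members and lists were chosen with earlier results of these data known. The 6 members are always named, and from each list and contrast up to 4 called genes with the smallest p. Homer1 and Sorcs1 are also named where they did not pass, a choice made after their values were seen. Likeness took the 5 genes of highest Pearson r. Some listed genes are not reported here.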

Additional observations from a re-analysis of the deposited data

Results flagged for a closer look

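In 4 of 72 sets of 5 libraries (6 genes in 12 groups), 1 library lay far from the others by Dixon's test, which chance gives in about 1 set of 20. Bdnf in Het fluoxetine males was 832 in replicate 4, with the next value 737. Vgf in WT lithium females was 15985 in replicate 5, with the next value 8787, and the same library held the highest Ngfr value, 62.6, with the next 39.5. Ntf3 in WT lithium males was 42.5 in replicate 3, with the next value 21.7.

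The effect of fluoxetine differed between the genotypes for 2 members by limma. The log2 difference, the effect in Het minus that in WT, was -0.52 for Vgf (adjusted p = 0.016), with effects of -0.46 in Het and 0.05 in WT, and it was 0.13 for Ntrk2 (adjusted p = 0.018), with effects of 0.10 in Het and -0.03 in WT. Neither passed with GC correction or with the library term.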

How the results depend on the processing

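No called member changed direction under any alternative. Of the other genes named as called, with GC correction or the library term only Sorcs3 did, for fluoxetine in Het, being at -0.01 with the library term (0.22 under the deposited scaling). Of the counts of called members, GC correction gave 1 for genotype in fluoxetine (3 under the deposited scaling), 1 for lithium in Het (0) and 0 for genotype by fluoxetine (2), and GC correction with the replicate block gave the same 1, 1 and 0. The library term gave 0 for genotype in fluoxetine, for fluoxetine in Het (3), for genotype by fluoxetine and for fluoxetine against lithium in Het (3). Fitting only the groups compared gave 1 for lithium in WT (2) and 0 for fluoxetine against lithium in WT (2), and this last count was 1 with TMM scaling, with no filter, with a pseudocount of 5 and without the 3 libraries of the largest residuals. Leaving out 1 library gave 1 to 2 for lithium in WT, 1 to 4 for fluoxetine against lithium in WT (4 without WT lithium female replicate 1 or 2) and 0 to 1 for the sex differences (1 without WT lithium female replicate 1 or 4, or male replicate 1). Pairs of correlated members numbered 9 with GC correction (4), and Bdnf and Vgf also passed without the 3 libraries of the largest residuals. Replicate numbers did not pair the libraries (mean correlation of deviations 5.4e-05, 8 of 60 libraries closest to their own number), and with the replicate block alone 3 members were called for fluoxetine in Het and 2 for lithium in WT, and no call of a member changed. Over all genes, calls for fluoxetine in Het numbered 6952, 3493 with GC correction and 49 with the library term, those for genotype in fluoxetine 7042, 2328 and 7, those for genotype by fluoxetine 4272, 1328 and 8, and those for fluoxetine against lithium in Het 5845, 2151 and 9. Those for lithium in WT numbered 3420 and 1278 with only the groups compared, and those for fluoxetine against lithium in WT 2326 and 449, with 1214 without WT lithium male replicate 5. The smaller counts moved too: 105 for genotype in vehicle (17 to 132 without 1 library, 224 with GC correction, 47 with only the groups compared, 241 without the 3 libraries), 175 for lithium in Het (54 to 259, 378 with GC correction, 367 without the 3 libraries), 12 for genotype by lithium (5 to 59, 47 with GC correction, 32 with the library term) and 5 for genotype in lithium (0 to 81). Ntf3 and Ngfr, with at most 38 and 66 reads, are limited by depth.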

Other observations

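The share of all tested genes that limma called was 8.43% for fluoxetine in WT, 39.0% for fluoxetine in Het, 19.2% for lithium in WT and 0.983% for lithium in Het. For fluoxetine in Het it was 19.6% under GC correction and 0.275% with the library term. These shares apply to all lists of this section. Of 15 granins and other cargo genes of dense-core vesicles, fluoxetine in Het lowered the somatostatin gene Sst (-0.47, SE 0.07) and the neuropeptide Y gene Npy (-0.17) with 1 other and raised the secretogranin gene Scg2 (0.36, SE 0.08) and Nucb2 (0.22), with 2 called under GC correction and 0 with the library term. Lithium in WT lowered the corticotropin-releasing hormone gene Crh (-0.50, SE 0.09, adjusted p = 0.00014) and raised the granin gene Chgb (0.19) and Nptx1 (0.19). Lithium in Het raised Scg2 (0.33, SE 0.08, adjusted p = 0.033). Fluoxetine in WT changed 0 of 15 by limma and 0 by edgeR, with 2 at an unadjusted p under 0.05. The list's medians lay between -0.01 and 0.04 in these 4 comparisons, against 0.00 over all genes.

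Of 23 partners of the p75 receptor, fluoxetine in WT raised the kinase gene Ripk2 (0.44, SE 0.08, adjusted p = 9.2e-05), which lithium in WT also raised (0.35, adjusted p = 0.0011) against the same vehicle libraries. Lithium in WT raised 1 further gene and lowered 3, Bex1 (-0.17), Adam17 (-0.23) and Irak1 (-0.13). Fluoxetine in Het raised 6 and lowered 8, with the NF-kappa-B gene Rela (-0.28) first, with 5 called under GC correction and 0 with the library term. Of 22 genes of other neurotrophic families, fluoxetine in WT lowered the cytokine receptor gene Il6st (-0.20, adjusted p = 0.0013) and raised the insulin-like growth factor receptor gene Igf1r (0.13, adjusted p = 0.032). Lithium in WT raised Igf1r (0.20, adjusted p = 0.00034) and lowered 6, among them Igf2 (-0.48, SE 0.10), Gfra4 (-0.22) and Il6st (-0.16). Fluoxetine in Het raised 5, with Erbb4 (0.28) first, and lowered 5, among them Vegfa (-0.23), with 5 called under GC correction and 0 with the library term. Lithium in Het changed 0 genes of either list by limma and 0 by edgeR, with 2 p75 partners and 3 genes of the other families at an unadjusted p under 0.05. Between Het and WT vehicle 0 genes of these 3 lists passed limma or edgeR, with 1 gene of each at an unadjusted p under 0.05. Of all tested genes 0.590% passed limma there.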
